A study of Homo sapiens with 6 samples.

Results

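The 45 genes described here carry cells through the division cycle, and they were read from RNA sequencing of LoVo cells, an established human colorectal cancer cell line, after depletion of the long non-coding RNA SNHG15. They were chosen by name as G1/S regulators on the one side, 14 genes, and as G2/M, spindle and kinetochore genes on the other, 31 genes, out of 63677 genes in the count table. All 45 were found in the table, and 43 of them passed the filter on low counts and were tested. CDK4 and TTK did not pass. One group of 3 libraries came from cells transfected with a combination of both SNHG15 small interfering RNAs (siRNAs, short RNA duplexes that direct the degradation of a matching transcript), and the other group of 3 from cells transfected with a scramble siRNA that serves as negative control. Both groups were cultures of the same line, given siRNA at 25 nM for 48 h, and the study describes its libraries as biological replicates. The 2 SNHG15 siRNAs were given together, so that the effect of either one cannot be told apart from that of the other.

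In G1, D-type cyclins with CDK4 or CDK6 and then cyclin E with CDK2 phosphorylate the retinoblastoma family of proteins, which frees E2F transcription factors to switch on the genes of S phase. In G2, cyclin A, cyclin B and CDK1 drive entry into mitosis, where a spindle made by motor proteins and microtubule regulators attaches to chromosomes at the kinetochore. The spindle checkpoint holds the anaphase-promoting complex (APC/C) inactive until every chromosome is attached, and the APC/C then releases separase from securin and ends mitosis. In cells that keep dividing, transcripts of the G2/M genes are made late in the cycle, and many of their promoters carry a CHR element and CCAAT boxes close to the transcription start, while many promoters of G1/S genes carry E2F sites.

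The promoter stretches of 5 members are shown because they hold these elements, and because they pair members that fell (CCNB2, CENPA, CCNA2 and RBL1) with one that did not pass the test (PLK1). Each is the 160 bases before the transcription start in RefSeq on GRCh38.p14, read in the direction of the gene. They lie at chr15:59104986-59105145 on the plus strand for CCNB2, chr2:26785896-26786055 on the plus strand for CENPA, chr16:23678729-23678888 on the plus strand for PLK1, chr4:121823884-121824043 on the minus strand for CCNA2 and chr20:37095998-37096157 on the minus strand for RBL1. Capitals mark the letters TTTGAA of the CHR element, the CCAAT box (written ATTGG where it is on the other strand) and the E2F core.
CCNB2: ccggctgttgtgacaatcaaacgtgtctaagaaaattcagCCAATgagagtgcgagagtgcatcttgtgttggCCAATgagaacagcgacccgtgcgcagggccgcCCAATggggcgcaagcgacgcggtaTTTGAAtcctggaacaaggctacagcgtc
CENPA: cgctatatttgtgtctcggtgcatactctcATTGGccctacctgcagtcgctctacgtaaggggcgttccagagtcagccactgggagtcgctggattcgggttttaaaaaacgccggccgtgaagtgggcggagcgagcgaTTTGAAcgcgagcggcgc
PLK1: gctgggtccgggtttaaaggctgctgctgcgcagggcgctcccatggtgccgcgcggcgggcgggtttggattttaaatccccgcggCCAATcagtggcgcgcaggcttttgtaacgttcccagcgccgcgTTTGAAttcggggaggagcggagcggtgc
CCNA2: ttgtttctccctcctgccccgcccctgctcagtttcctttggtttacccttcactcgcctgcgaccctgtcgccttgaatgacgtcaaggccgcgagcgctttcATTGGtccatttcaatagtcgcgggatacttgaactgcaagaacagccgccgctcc
RBL1: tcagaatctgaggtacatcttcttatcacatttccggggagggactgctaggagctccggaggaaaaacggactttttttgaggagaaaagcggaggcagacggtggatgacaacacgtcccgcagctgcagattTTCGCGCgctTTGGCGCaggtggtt

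The CCNB2 stretch holds a CHR element that starts at position -29 from the transcription start, behind 3 CCAAT boxes at -120, -87 and -54. PLK1 has its CHR element at the same position, -29, with 1 CCAAT box at -73, and CENPA has a CHR element at -18. CCNA2 holds a CCAAT box at -56 and no TTTGAA in this window, which does not exclude a CHR element of other letters. RBL1 holds 2 E2F cores at -25 and -15. Promoter windows, from 250 bases before to 50 bases after the start, were listed for 35 of the 45 genes. CCND1, CCNE2, CDK2, AURKA, FOXM1, BUB3, TTK, UBE2C, TPX2 and BIRC5 had no entry.

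Searched on both strands, TTTGAA was in 18 of 27 windows of the G2/M, spindle and kinetochore genes (66.7%) and in 1 of 17 windows of the G1/S regulators (5.88%), against 15.2% of all 35116 windows. CCAAT was in 81.5% of the G2/M windows and in 35.3% of the G1/S windows, against 34.6% of all. The order was the other way for the E2F cores, the letters TTGGCGC or else TTCCCGC or else TTCGCGC or else TTGCCGC, of which at least 1 was in 29.4% of the G1/S windows and 22.2% of the G2/M windows, against 13% of all. None of these motifs contains another. Some genes have more than 1 window, so windows are not independent, and the 17 G1/S windows come from 11 genes and the 27 G2/M windows from 24. Counted by gene, TTTGAA was in 17 of 24 G2/M genes and 1 of 11 G1/S genes, and CCAAT in 19 and 5. An E2F core was in 5 of 24 G2/M genes and 5 of 11 G1/S genes. TTTGAA was in 4 of 5 windows of G2/M members called lower and in 14 of 22 windows of those not called. With so few windows, the difference between these shares was not tested. These counts describe letters in a window and not binding, and forms of an element with other letters were not searched.

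SNHG15 itself checked the labels. Its level was 290, 277 and 261 CPM (counts scaled to the size of the library, as in the rest of the text) in the scramble libraries and 77.2, 83.1 and 87.2 CPM in the SNHG15 siRNA libraries. It fell to 29.9% of the scramble mean (log2 fold change -1.74, SE 0.12, edgeR adjusted p = 2.62e-05). The libraries held 3446922 to 10256710 counts, the fewest in scramble replicate 3, and SNHG15 siRNA replicate 1 stood apart from the other two of its group on the first principal component (39.1 against 14.3 and 11.5). Of 9 markers of colorectal epithelium, KRT8, KRT18, CDX2 and CDH1 were detected in every library, with a summed level over all 9 of 102 to 110 CPM in scramble and 106 to 117 CPM in SNHG15 siRNA libraries. EPCAM, KRT20, VIL1, CEACAM5 and LGALS4 had at most 4 counts in any library. Markers of fibroblasts had at most 9 counts in any library, those of leukocytes at most 1, and the 2 endothelial markers found in the table at most 2. GAPDH and EEF1A1, looked up after the values were seen, had only 70 to 270 and 81 to 355 counts, where ACTB had 2942 to 9368. A low or zero count in this table was therefore not read as absence of a transcript, and its cause was not tested.

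Of the 43 tested genes, 8 fell in SNHG15 siRNA cells at an adjusted p under 0.05 and 0 rose (edgeR, quasi-likelihood test, p adjusted over all 12507 genes tested by Benjamini-Hochberg). The 8 were CDK6 and RBL1 among G1/S regulators, CCNA2 and CCNB2 among G2/M cyclins, NUF2, NDC80 and CENPA at the kinetochore, and TPX2 on the spindle. They make up 18.6% of the tested members, whereas 2.23% of all genes tested were called lower and 3.13% called higher. At a mean of 20 CPM or more, 7 of 32 members were called lower, against 237 of 6714 of all genes tested. Members were chosen with earlier results of these data known, so these shares only describe the set. With upper-quartile scaling, 230 genes were called lower and 515 higher, in place of 279 and 392, and 7 members were called, without RBL1. At an unadjusted p under 0.05, 17 members were lower and 3 higher (RB1, CCNE2 and TOP2A), against 10.5% of all genes lower and 12.0% higher. DESeq2 called 8 members lower and 0 higher, but not the same 8, with CDK1 and KIF23 in place of RBL1 and NDC80. The number of members called was 13 with an offset for GC content, 14 with no filter on low counts and 5 with a minimum of 10 counts per library. From RNA counts of bulk cultures alone, fewer cells in a phase of the cycle and less RNA per cell cannot be told apart. The study reports significantly lower proliferation and colony formation of LoVo cells after knockdown of this RNA by siRNA. By propidium iodide staining, it reports no significant change in their phase distribution. Those measurements were not among the data read here, and their relation to the fold changes was not tested.

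**Figure D1:**
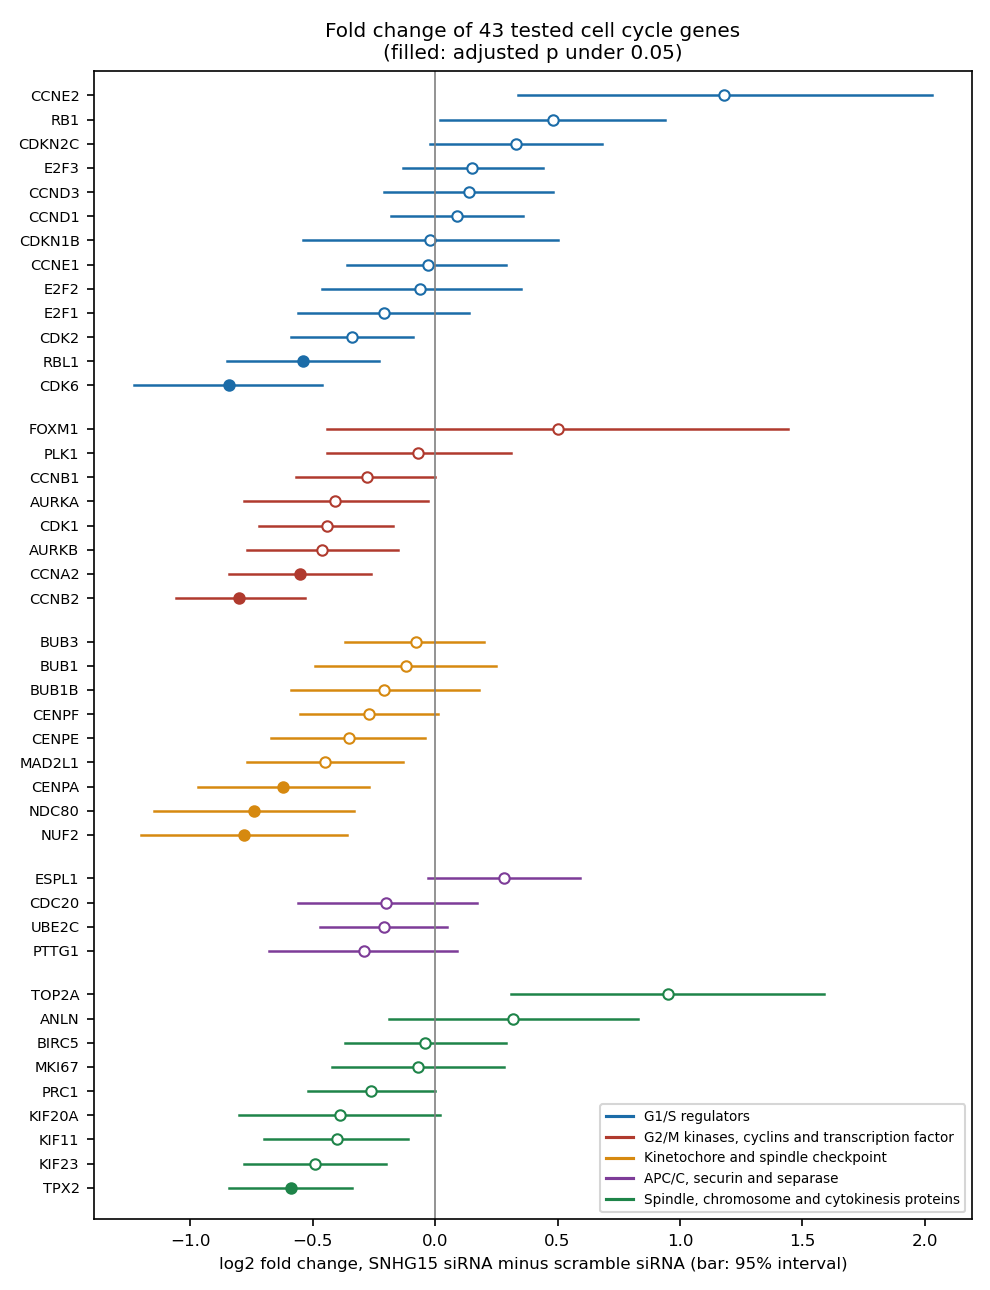
Log2 fold change of SNHG15 siRNA against scramble siRNA for each of the 43 tested genes, grouped by role. Points are edgeR estimates, bars their 95% intervals, and filled points mark an adjusted p under 0.05. The 8 filled points all lie left of 0, between -0.84 (CDK6) and -0.54 (RBL1), and all 9 kinetochore and checkpoint genes lie left of 0.

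The fold changes of the whole set leaned to lower values, where lower and higher refer to the sign of the fold change and called to the test. Their median was -0.21 on the log2 scale, with 33 genes below 0 and 10 above, where the median of all genes tested was 0.0. Every SNHG15 siRNA library lay below every scramble library for 20 members (14.1% of all genes tested), and above for 3, CCNE2, TOP2A and E2F3 (14.7% of all genes). G1/S regulators were divided, with 7 of 13 lower, 6 higher and a median of -0.02. Of the G2/M, spindle and kinetochore genes, 26 of 30 were lower, 4 were higher and the median was -0.29. The number called lower was 2 of 13 in the former and 6 of 30 in the latter (20%), and the difference between both sets was not tested. Transcripts of S phase outside the set also leaned to lower values (35 of 40 lower, median -0.38). The lean was therefore not particular to G2/M genes.

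Summed over the tested members, the level of the G2/M, spindle and kinetochore genes was 2602, 2560 and 2703 CPM in the scramble libraries and 2122, 2158 and 2186 CPM in the SNHG15 siRNA libraries. The groups did not overlap, and their means were 2621 ± 73.7 and 2156 ± 32.0 CPM (SD, n = 3). The summed level of the G1/S regulators was 562, 566 and 566 CPM against 584, 541 and 513 CPM, so that SNHG15 siRNA replicate 1 lay above and the other two below all scramble libraries. On the log2 scale the difference of the sums was -0.28 for the G2/M genes and -0.05 for the G1/S genes. When libraries were scaled by their total alone, it was -0.19 for the G2/M genes and turned to 0.04 for the G1/S genes. The ratio of both sums, which needs no scaling, was 4.63, 4.52 and 4.77 in scramble and 3.63, 3.99 and 4.26 in SNHG15 siRNA libraries. Its means were 4.64 ± 0.126 and 3.96 ± 0.313 (SD, n = 3), again without overlap.

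**Figure D2:**
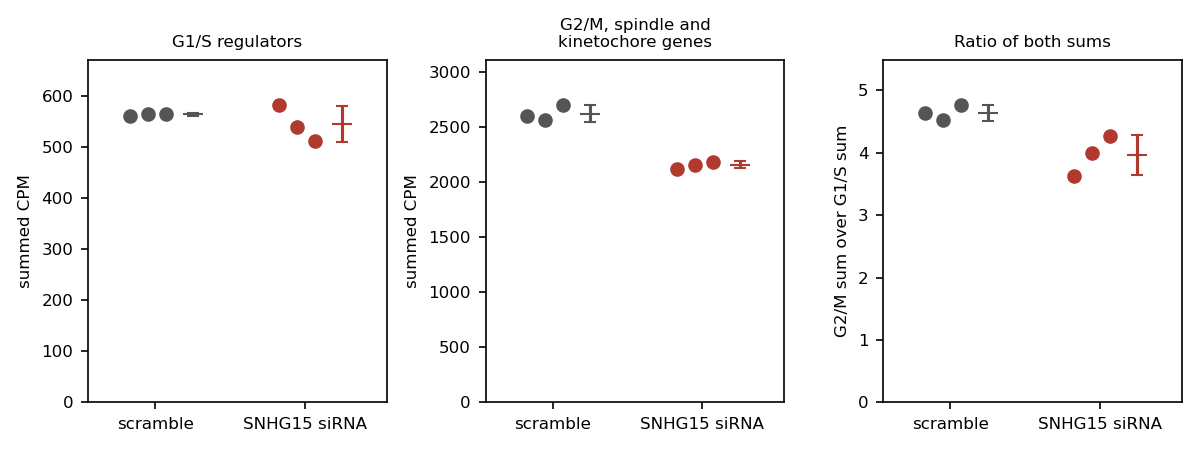
Summed CPM of the 13 tested G1/S regulators (left) and of the 30 tested G2/M, spindle and kinetochore genes (middle), and the ratio of both sums (right), with a point for each library in the order of replicates 1 to 3 and the mean and SD beside them (n = 3). The G1/S sums overlap between 513 and 584 CPM, while the G2/M sums of the SNHG15 siRNA libraries, at most 2186 CPM, all lie under the lowest scramble value of 2560 CPM.

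Of the G1/S regulators, CDK6 and RBL1 fell. CDK6 encodes a kinase that acts with D-type cyclins. On hg19, the build of all gene positions given here, it lies at chr7:92234235-92465887 on the minus strand. Its level was 31.6, 26.6 and 28.1 CPM in scramble libraries and 12.1, 18.0 and 18.0 CPM in SNHG15 siRNA libraries, the lowest in replicate 1. The siRNA mean of 16.0 ± 3.41 CPM was 55.6% of the scramble mean of 28.8 ± 2.60 CPM (log2 fold change -0.84, SE 0.18, edgeR adjusted p = 0.017). Its partner cyclins did not pass the test. CCND1, cyclin D1, had a fold change of 0.09 (95% interval -0.18 to 0.36), and CCND3, cyclin D3, of 0.14. The ratio of CDK6 to CCND1, in CPM, was 0.501, 0.417 and 0.417 in scramble and 0.175, 0.241 and 0.285 in SNHG15 siRNA libraries, without overlap. CDK6 lost its call when scramble replicate 1, 2 or 3 was left out (log2 fold change -0.77, -0.90 and -0.86, edgeR adjusted p 0.0889, 0.0619 and 0.054).

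RBL1, which encodes the retinoblastoma relative p107 and lies at chr20:35624752-35724400 on the minus strand, had 27.3, 30.1 and 26.0 CPM in scramble and 18.6, 20.1 and 19.0 CPM in SNHG15 siRNA libraries. The groups were far apart against their spread, at 27.8 ± 2.11 and 19.2 ± 0.803 CPM (SD, n = 3). RBL1 fell by 0.54 on the log2 scale (SE 0.14, edgeR adjusted p = 0.0459), close to the threshold, and was not called by DESeq2 (-0.55). It kept its call only when SNHG15 siRNA replicate 1 was left out (-0.52) and lost it without each of the 3 scramble libraries (-0.56, -0.47 and -0.58) or without SNHG15 siRNA replicate 2 or 3 (-0.57 and -0.53). RB1, the retinoblastoma gene itself, had a fold change of 0.48 (edgeR adjusted p = 0.207). The ratio of RBL1 to RB1 was 4.01 ± 1.00 in scramble and 2.04 ± 0.302 in SNHG15 siRNA libraries, from 2.97 to 4.97 and from 1.69 to 2.22.

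The cyclins E and their kinase gave values of both signs, and none passed the test. CDK2, the kinase of cyclins E and A, had 92.6, 104 and 95.3 CPM in scramble and 75.8, 75.9 and 79.2 CPM in SNHG15 siRNA libraries. These groups did not overlap, but the fold change of -0.34 (SE 0.12) did not pass (edgeR adjusted p = 0.11). CCNE1, cyclin E1, was at -0.03 (95% interval -0.36 to 0.29).

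CCNE2, cyclin E2, was counted 11, 17 and 2 times in scramble and 32, 19 and 18 times in SNHG15 siRNA libraries, or 1.29, 1.69 and 0.605 against 4.44, 2.73 and 2.11 CPM. Its SNHG15 siRNA values were all the higher ones, with a log2 fold change of 1.18 (SE 0.39) that did not pass (edgeR adjusted p = 0.0956) and was called only with no filter on low counts (1.16). CCNE2 reached the filter level of 1.31 CPM in 1 scramble library and in all 3 SNHG15 siRNA libraries, and 37% of its exon bases overlap exons of INTS8 on the opposite strand. The E2F factors gave no call, E2F1 at -0.21, E2F2 at -0.06 and E2F3 at 0.15. The CDK inhibitor genes CDKN1B (p27) and CDKN2C (p18) were at -0.02 and 0.33. CDK4 had 4, 2 and 6 counts in scramble and 5, 4 and 9 counts in SNHG15 siRNA libraries, too few to test, and 44.2% of its exon bases overlap TSPAN31.

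Of the 8 kinases, cyclins and transcription factor of G2/M, 7 were lower with a median of -0.42, and 2 were called. CCNB2, cyclin B2, at chr15:59397325-59417244 on the plus strand, had 85.2, 92.6 and 99.8 CPM in scramble and 53.5, 53.2 and 52.7 CPM in SNHG15 siRNA libraries. The SNHG15 siRNA libraries lay within 1 CPM of each other, and the lowest scramble library was well above them. CCNB2 fell to 57.5% of the scramble mean (log2 fold change -0.80, SE 0.12, edgeR adjusted p = 0.00505). It was called in all 6 fits that left out 1 library, with fold changes from -0.86 to -0.75. Counts assigned to its copy CCNB2P1 were 4.07% of those of CCNB2.

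CCNA2, cyclin A2, at chr4:122737599-122745038 on the minus strand, had 124, 118 and 127 CPM in scramble and 70.4, 84.7 and 95.8 CPM in SNHG15 siRNA libraries. Its SNHG15 siRNA libraries spread more widely than the scramble libraries, at 83.7 ± 12.7 against 123 ± 4.71 CPM (SD, n = 3). CCNA2 fell by 0.55 on the log2 scale (SE 0.13, edgeR adjusted p = 0.0316), and lost the call without scramble replicate 1, 2 or 3 or SNHG15 siRNA replicate 2 (-0.55, -0.58, -0.53 and -0.56). CDK1, the kinase that drives entry into mitosis, had 84.0, 89.8 and 91.0 CPM in scramble and 58.2, 64.3 and 72.2 CPM in SNHG15 siRNA libraries. The groups did not overlap, yet its fold change of -0.44 (SE 0.13) missed the threshold (edgeR adjusted p = 0.0612). CDK1 was called by DESeq2 (-0.45) and with an offset for GC content (-0.50).

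CCNB1, which encodes cyclin B1, the partner of CDK1, did not pass the test. Its fold change was -0.28 (95% interval -0.57 to 0.00), and the ratio of CCNB2 to CCNB1 was 0.535, 0.699 and 0.576 in scramble against 0.405, 0.456 and 0.398 in SNHG15 siRNA libraries. These ratios did not overlap, while those of CDK1 to CCNB1 did, at 0.577 ± 0.0878 and 0.512 ± 0.0615 (SD, n = 3). The mitotic kinases AURKA and AURKB were at -0.41 and -0.46 and did not pass (edgeR adjusted p = 0.187 and 0.0798), though AURKB was called without SNHG15 siRNA replicate 1 (-0.56) and with the offset for GC content (-0.50). PLK1, a further mitotic kinase, was at -0.07 (95% interval -0.44 to 0.31). FOXM1, a transcription factor of G2/M genes, had 2 to 13 counts in scramble and 8 to 16 counts in SNHG15 siRNA libraries, with a fold change of 0.50 and a wide standard error of 0.44.

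**Figure D3:**
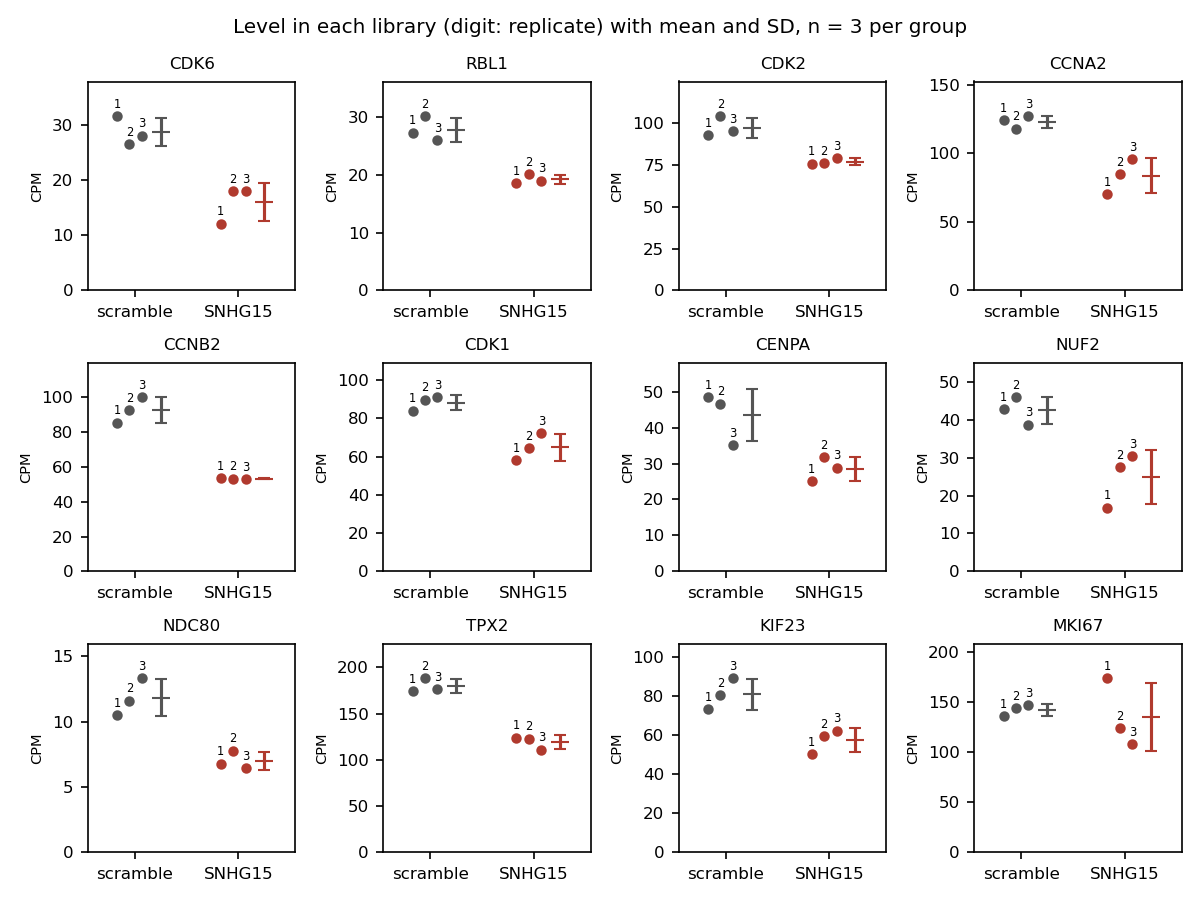
Level in CPM of 12 members in each library (digit, replicate), with the mean and SD of 3 libraries beside each group. All 8 genes that fell are shown with CDK2, CDK1 and KIF23, whose groups do not overlap either, and with MKI67, whose SNHG15 siRNA libraries (174, 124 and 108 CPM) lie on both sides of the scramble libraries.

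All 9 tested genes of the kinetochore and the spindle checkpoint were lower, with a median of -0.35, and 3 were called, all of them structural genes of the kinetochore. NUF2 and NDC80 encode subunits of the NDC80 complex, which binds microtubules. NUF2, at chr1:163236366-163325554 on the plus strand, had 42.8, 45.9 and 38.7 CPM in scramble and 16.8, 27.5 and 30.3 CPM in SNHG15 siRNA libraries. Replicate 1 was the lowest by far, and the group was at 58.5% of the scramble mean (log2 fold change -0.78, SE 0.19, edgeR adjusted p = 0.0371). Without SNHG15 siRNA replicate 1 the fold change was -0.57 and still called, whereas the call was lost without scramble replicate 1, 2 or 3 or SNHG15 siRNA replicate 2 (-0.78, -0.71, -0.84 and -0.85).

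NDC80, at chr18:2571556-2616634 on the plus strand, had lower values, with 10.5, 11.6 and 13.3 CPM in scramble and 6.79, 7.77 and 6.46 CPM in SNHG15 siRNA libraries. Its groups stood clear of each other, at 11.8 ± 1.39 and 7.01 ± 0.679 CPM (SD, n = 3). NDC80 fell by 0.74 on the log2 scale (SE 0.19, edgeR adjusted p = 0.0406). It was not called in any of the 6 fits without 1 library, from -0.82 without scramble replicate 1 to -0.67 without scramble replicate 3 or SNHG15 siRNA replicate 3, with edgeR adjusted p between 0.0521 and 0.139, nor by DESeq2 (-0.75).

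CENPA encodes the histone H3 variant that marks the centromere and lies at chr2:26987157-27023935 on the plus strand. It had 48.4, 46.6 and 35.1 CPM in scramble and 25.0, 31.8 and 28.8 CPM in SNHG15 siRNA libraries, with scramble replicate 3 closest to the treated group. CENPA fell by 0.62 on the log2 scale (SE 0.16, edgeR adjusted p = 0.0415). The call was lost without scramble replicate 1 or 2 (-0.54 and -0.57) and without SNHG15 siRNA replicate 2 or 3 (-0.70 and -0.63), and also with a minimum of 10 counts per library (-0.60). MAD2L1, the checkpoint protein MAD2, was at -0.45 (edgeR adjusted p = 0.0955) and was called without SNHG15 siRNA replicate 3 (-0.57) and with the offset for GC content (-0.51). Its groups did not overlap, nor did its ratio to BUB3, which was 0.479 ± 0.0479 in scramble and 0.369 ± 0.0224 in SNHG15 siRNA libraries. In each gene ratio given here without overlap, the numerator alone already separated the groups, so the ratio is no separate result.

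The checkpoint genes BUB1, BUB1B and BUB3 gave small values, -0.12, -0.21 and -0.08, and for BUB3 the 95% interval ran from -0.37 to 0.20. The kinetochore motor CENPE was at -0.35 and the outer kinetochore protein CENPF at -0.27, and neither passed, although CENPF was called without SNHG15 siRNA replicate 1 (-0.39). TTK, a checkpoint kinase, had 0 counts in all 6 libraries, which allows up to 0.292 CPM in the deepest and 0.87 CPM in the shallowest library, for counting error only.

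No call was made among the 4 genes of the APC/C, securin and separase, by edgeR or by DESeq2, and 0 of them had an unadjusted p under 0.05. ESPL1, separase, which cuts cohesin at anaphase, had 100, 125 and 110.0 CPM in scramble and 112, 147 and 149 CPM in SNHG15 siRNA libraries (log2 fold change 0.28, edgeR adjusted p = 0.261). It was the one gene of this role above 0, and its groups overlapped. UBE2C, the ubiquitin-conjugating enzyme of the APC/C, had 148, 131 and 144 CPM against 110.0, 130.0 and 125 CPM (-0.21, edgeR adjusted p = 0.325). PTTG1, securin, had 75.7, 88.8 and 87.4 CPM against 86.6, 69.9 and 49.4 CPM (-0.29, edgeR adjusted p = 0.358), with SNHG15 siRNA replicate 1 inside the scramble range and replicate 3 far below it. CDC20, the activator of the APC/C, was at -0.20. Its copy CDC20P1 held counts equal to 9.70% of those of CDC20.

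Among the 9 spindle, chromosome and cytokinesis genes the median was -0.26, with 7 lower and 1 called. TPX2, a spindle assembly factor that activates Aurora A, lies at chr20:30327074-30389608 on the plus strand. It had 174, 188 and 176 CPM in scramble and 124, 123 and 111 CPM in SNHG15 siRNA libraries, tightly grouped on both sides. TPX2 fell to 66.5% of the scramble mean (log2 fold change -0.59, SE 0.12, edgeR adjusted p = 0.0134), and lost the call without scramble replicate 1 or 2 (-0.62 and -0.55, edgeR adjusted p 0.0557 and 0.079). The ratio of TPX2 to AURKA overlapped between the groups, at 3.11 ± 0.649 and 2.72 ± 0.287 (SD, n = 3).

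KIF23, a motor of the central spindle, had 73.4, 80.6 and 89.2 CPM in scramble and 50.5, 59.7 and 62.4 CPM in SNHG15 siRNA libraries. Its groups did not overlap and its fold change of -0.49 (SE 0.14) lay just outside the threshold (edgeR adjusted p = 0.0547). It was called by DESeq2 (-0.50) and with the offset for GC content (-0.51). The spindle motors KIF11 and KIF20A were at -0.40 and -0.39, and PRC1, which bundles microtubules of the central spindle, at -0.26, without a call, although KIF11 was called with the offset for GC content (-0.46).

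TOP2A, the topoisomerase that untangles chromosomes, had higher values in every SNHG15 siRNA library. It had 6.56, 7.06 and 5.75 CPM in scramble and 19.3, 7.34 and 11.6 CPM in SNHG15 siRNA libraries, the highest in replicate 1. Its fold change of 0.95 (SE 0.30) did not pass (edgeR adjusted p = 0.0791). It was called without SNHG15 siRNA replicate 2 (1.23) and with no filter on low counts (0.92), and was 0.54 without replicate 1. MKI67, the gene of the proliferation marker Ki-67, was at -0.07 (95% interval -0.42 to 0.28), BIRC5 (survivin) at -0.04 and ANLN (anillin, of the cleavage furrow) at 0.32.

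Per kb of exon, the highest values among members in scramble cells were those of UBE2C (110.0 CPM per kb), CCNB1 (63.7 CPM per kb) and AURKB (62.2 CPM per kb). The lowest with counts were FOXM1 (0.205 CPM per kb), CDK4 (0.267 CPM per kb) and CCNE2 (0.272 CPM per kb). Such low values were not read as absence of the transcript. With GAPDH and EEF1A1 also low in this table, the order of values between genes was not read as an order of abundance. Exons of another gene overlap 15.9% of exon bases of FOXM1, 44.2% of those of CDK4 and 37% of those of CCNE2. The genes with fold changes above 0 were mostly of low level. Of 11 tested members with a mean under 20 CPM, 6 were above 0 and the median was 0.32, and of 32 members at 20 CPM or more, 4 were above 0 and the median was -0.27. All genes tested showed the same lean, since 60.1% of those under 20 CPM and 41.4% of those at 20 CPM or more were above 0. Among the low members above 0, CCNE2 reached the filter level of 1.31 CPM in 1 scramble and 3 SNHG15 siRNA libraries. FOXM1 reached it in 1 scramble and 2 SNHG15 siRNA libraries. That both were tested at all thus leaned on the SNHG15 siRNA group. Across the 43 members, Pearson's r between fold change and log2 mean CPM was -0.464, and across all 12507 genes -0.258. These genes share the same 6 libraries and are not independent replicates, and the part of level in these fold changes was not tested.

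**Figure D4:**
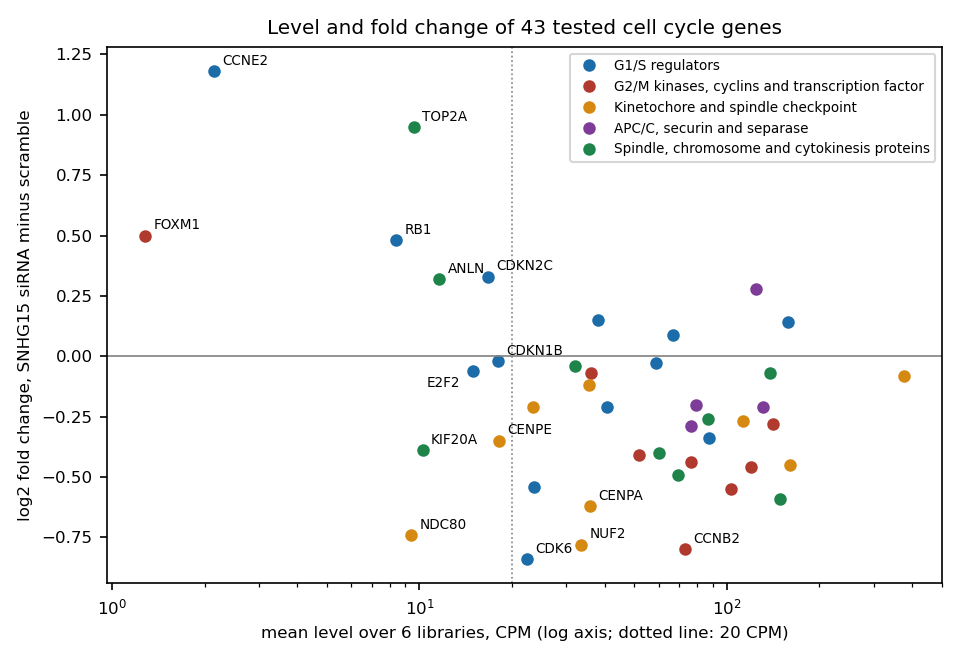
Log2 fold change against the mean level over 6 libraries (CPM, log axis) of the 43 tested genes, colored by role, with a dotted line at 20 CPM. Only 4 of the 32 genes right of the line lie above 0, while 6 of the 11 genes left of it do, CCNE2 and TOP2A the highest.

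SNHG15 siRNA replicate 1, the library that stood apart, had the lowest level of its group in 5 of the 8 genes that fell (CDK6, RBL1, CCNA2, CENPA and NUF2). Over all 43 members it was the lowest of 3 in 17 and the highest in 17 (39.5% each), against 42.0% and 39.4% of all genes tested. MKI67, TOP2A, PLK1, CDC20 and PTTG1 were among those highest in it. Without this library 9 members were called, more than with it, and without scramble replicate 1 or 2 only 1, CCNB2.

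Further genes of the cycle, 168 tested of 176 listed, had the same median of -0.21, and 21 were called lower (12.5%) and 5 higher, against 2.23% of all genes tested called lower and 3.13% called higher. The E2F and MuvB regulators and inhibitors of G1/S, 22 tested, had 5 called lower and 0 higher with a median of -0.14 (DESeq2 also 5 and 0, and 1 higher at an unadjusted p under 0.05 by edgeR). CKS1B, a CDK-binding subunit, fell by 1.19 on the log2 scale from 42.5 ± 6.44 to 18.6 ± 2.96 CPM (edgeR adjusted p = 0.00372). MYBL2, or B-MYB, which activates G2/M genes together with the MuvB complex, fell by 0.72, the CDK4 and CDK6 inhibitor CDKN2B by 0.86, the repressor E2F4 by 0.56 and the MuvB subunit LIN52 by 0.61. CKS1B kept its call in all 6 fits without 1 library, MYBL2 in 4, and CDKN2B, E2F4 and LIN52 in 2 each.

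Of 40 tested transcripts of S phase, 9 were called lower and 1 higher, with a median of -0.38. By sign, 35 of the 40 were lower (87.5%), against 26 of 30 of the G2/M, spindle and kinetochore members (86.7%). RRM2, a subunit of ribonucleotide reductase, fell by 0.77, the chromatin assembly factor subunit CHAF1B by 0.81, the MYC target CDCA7 by 0.71 and thymidylate synthase TYMS by 0.62 (edgeR adjusted p = 0.00507, 0.00569, 0.00761 and 0.0112). ATAD2, a chromatin-binding ATPase, rose by 1.01, from 31.6, 17.3 and 28.7 CPM to 66.0, 42.4 and 46.2 CPM (edgeR adjusted p = 0.0227). Its call was lost without scramble replicate 2 or 3, and that of TYMS without scramble replicate 1 or 3, while RRM2, CHAF1B and CDCA7 were called in all 6 fits without 1 library. DESeq2 called 12 of these transcripts lower and 2 higher.

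Of 44 further transcripts of G2/M, 3 were called lower and 1 higher, with 33 lower by sign (75.0%) and a median of -0.17. The higher one was SMC4, which is also a condensin gene. HMGB2, a chromatin protein, had 684, 723 and 428 CPM in scramble and 174, 262 and 296 CPM in SNHG15 siRNA libraries and fell by 1.33 on the log2 scale (SE 0.21, edgeR adjusted p = 0.00569), more than any of the 43 members. The kinase MELK and the microtubule depolymerase KIF2C fell by 0.60 and 0.44 and were called in 3 and 1 of the 6 fits without 1 library. Of 32 further kinetochore subunits, 2 were called lower and 1 higher, with 27 lower and a median of -0.25, where DESeq2 called 5 lower and 1 higher. The inner kinetochore subunit CENPH fell by 0.69 and SKA3, a microtubule-binding subunit, by 0.71 (edgeR adjusted p = 0.00785 and 0.00913). SKA3 was called in all 6 fits without 1 library, and CENPH lost its call without scramble replicate 1 or 2. SGO2, a protector of centromeric cohesion, rose by 0.97 from 7.45 ± 1.35 to 14.2 ± 3.58 CPM (edgeR adjusted p = 0.0258), without a call when any of the 3 scramble libraries was left out.

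The subunits of the APC/C itself had a median of 0.05, with 7 of 15 lower. edgeR called 0 of them, with 1 lower and 1 higher at an unadjusted p under 0.05, and DESeq2 called 1 higher. Cohesin and condensin genes, 18 tested, were divided, with 2 called lower and 3 higher by edgeR and 4 lower and 3 higher by DESeq2. STAG2, a cohesin subunit, rose by 1.46 from 6.68, 2.78 and 3.33 CPM to 15.1, 9.93 and 11.2 CPM, and SMC2 and SMC4, the core of both condensins, rose by 1.2 and 0.70 (edgeR adjusted p = 0.0164, 0.0191 and 0.0198). NCAPG2 of condensin II and NCAPH of condensin I fell by 0.67 and 0.60 (edgeR adjusted p = 0.0204 and 0.0221). STAG2 and SMC2 lost their calls without scramble replicate 2 or 3, SMC4 without scramble replicate 1 or 3 or SNHG15 siRNA replicate 2, and NCAPG2 and NCAPH were called in 2 and 1 of the 6 fits.

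Reads of overlapping genes and of copies bear on some of these values. Exons of 17 members overlap another gene, and for 7 of them at least 10% of exon bases do. Beside CDK4 and CCNE2 these are PRC1 (34.3%), FOXM1 (15.9%), CDK2 (14.5%), PLK1 (11.6%) and CCND1 (10.4%), none of which was called. Called members with smaller overlaps were CCNA2 (9.24%, EXOSC9), CENPA (7.08%, SLC35F6), RBL1 (3.58%), CDK6 (0.703%) and NUF2 (0.149%). SLC35F6 lies on the same strand as CENPA, so that strand would not tell their reads apart. For the other called members the overlapping gene is on the opposite strand. Library strand was kept by the kit, but the strand setting of the counting is not given in the sources used here, so that the share of such reads was not tested.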

How the data were processed

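Total RNA of LoVo cells was sequenced as paired 75-base reads after a stranded mRNA kit. The authors deposited raw counts of reads per Ensembl gene on hg19, not normalized. The submitters' processing notes name STAR and featureCounts, whereas the study's methods name bowtie2, and no version was given. Groups and replicate numbers came from the sample labels, and 0 columns were left unassigned.

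The analysis used R 4.3.3 with edgeR 4.0.16. After filterByExpr (minimum count 10, total 15) and TMM scaling, genes were tested by the quasi-likelihood test without a block, adjusting p by Benjamini-Hochberg over 12507 genes at a threshold of 0.05. Of 63677 genes, 23675 had counts. Each standard error is the fold change divided by the root of its F statistic. With 3 libraries per group, depth was 3446922 to 10256710 counts, and floors (3 counts) cover counting error only, while the 95% intervals of fold changes include the spread between libraries. Exon lengths and positions came from GENCODE release 44 on GRCh37, in which 8012 identifiers had no entry, and promoters from RefSeq on GRCh38.p14.

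Members and lists were chosen with earlier results of these data known, and no list was tested. Values in every library are given for SNHG15, for each member past the threshold and for the 3 smallest p of each role group, with up to 5 called genes named per further list. CDK2 and ATAD2, STAG2 and HMGB2 also have them, chosen after their values were seen. S phase genes described by name were kept to a few of those called.

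Alternatives were DESeq2 1.42.0, RLE and upper-quartile factors, total counts, no filter, at least 10 counts in every library, loess offsets for GC content or exon length (span 0.3), the replicate number as a block, and leaving out each library. On simulated counts for 12507 genes with 200 changed by 1 on the log2 scale, edgeR recovered 132 with 4 false calls and DESeq2 126 with 11. The simulation gave every gene the same dispersion and let no library stand apart. Its change was also larger than that of any called member (0.54 to 0.84), so these rates do not carry over to the real libraries.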

Additional observations from a re-analysis of the deposited data

How the results depend on the processing

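The number of members called stayed at 7 to 9 under DESeq2, RLE factors, upper-quartile factors and the length offset, though DESeq2 called a partly different set. It was 14 with no filter on low counts, 5 with a minimum of 10 counts per library, 13 with the GC offset and 1 to 9 when 1 library was left out. The number of all genes called was 671 and became 1312 with no filter and 139 to 812 without 1 library. Of the further cycle genes, 26 were called, 44 with no filter, 42 with the GC offset and 10 to 34 without 1 library. The median of the G2/M members stayed between -0.36 and -0.26 and that of the G1/S members between -0.02 and 0.10 without 1 library. The log2 difference of the summed G2/M level was -0.28, -0.25 with upper-quartile factors and -0.19 with total counts only. CCNB2, CDK6, CCNA2, NUF2 and TPX2 were called in all 9 alternatives that kept every library, CENPA in 7, NDC80 in 6 and RBL1 in 5. The cause of these differences was not tested.

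In these alternatives signs turned for members that were not called, and for the summed G1/S level, from -0.05 to 0.04 with total counts only. CDKN1B was at 0.02 with upper-quartile factors and 0.01 with a minimum of 10 counts per library. Without 1 library, fold changes ran from -0.39 to 0.23 for CDKN1B, -0.08 to 0.26 for CCND3, -0.17 to 0.10 for E2F2, -0.13 to 0.11 for CCNE1, -0.27 to 0.07 for PLK1, -0.15 to 0.03 for BUB3, -0.16 to 0.04 for BIRC5 and -0.29 to 0.07 for MKI67.

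Same-numbered libraries deviated from their group means with correlations of -0.0703, 0.155 and -0.0416. Libraries of different number gave correlations from -0.166 to 0.145. With 3 libraries per group these deviations constrain each other, so they cannot decide whether the replicate numbers pair the libraries. With the replicate block 5 members were called, and 12 with the block and the GC offset together. Depth limits the rarest members, since CCNE2 and FOXM1 had 2 counts each in scramble replicate 3.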
